A study of Mus musculus with 158 samples.

Results

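Eftud2 and Nup133 were 2 of the 285 genes knocked down in a pooled screen of short hairpin RNAs (shRNAs), and they were represented by 6 of its 1000 targeting hairpins. Eftud2 was covered by hairpins TRCN0000123640 and TRCN0000123642 in pool 9 and by TRCN0000294567 in pool 15. Nup133 was covered by TRCN0000246814, TRCN0000246815 and TRCN0000246817, which all lay in pool 17. The genes were chosen from these data, because the hairpins of both were lower in lungs than in culture relative to the other hairpins of their pools. The changes of these hairpins between day 0, culture and lungs are therefore given as a description. Counts of them past a threshold stand once beside the share of all hairpins, and nothing is read from them.

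Eftud2 encodes a GTPase of the U5 small nuclear ribonucleoprotein, a building block of the spliceosome, which removes introns from precursor messenger RNA and is needed by dividing cells of all kinds. Nup133 encodes a scaffold protein of the nuclear pore, a member of the Y-shaped complex from which pores are built and which also acts at kinetochores in mitosis. In a pooled shRNA screen each cell carries a hairpin integrated in its genome, so the share of a hairpin among the sequenced reads stands for the share of cells that carry it.

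The cells were PDA530 Met, a mouse pancreatic cancer line whose label gives a liver metastasis as its origin, with no further genotype. They received 1 of 19 viral pools of hairpins and were selected with puromycin, and all 3 groups share this treatment. The groups were a pellet at day 0, parallel cultures kept for 28 days, and lung tumours collected 28 days after injection into the tail vein of 3 mice per pool, with all tumours of a mouse pooled into 1 sample. Hairpins were amplified from genomic DNA and sequenced, so tumour RNA and the degree of knockdown were not measured in these libraries.

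The 3 pools that hold the members had 30 libraries, 9 from day 0, 13 from culture and 8 from lungs, each with 4500424 to 16549822 reads. A library is named here by its pool and replicate letter, and a culture library may be named for 2 pools that it holds together. Pool 9 had 2 lung libraries, 9A and 9C, and 6 culture libraries, while pools 15 and 17 had 3 lung libraries each. Levels are given as CPM, the reads of a hairpin per 1000000 reads of all targeting hairpins of its pool. Lung library 17A had 18.7% and culture library 16/17A had 15.3% of their reads from hairpins of other pools, and both were kept. The number of rare hairpins differed between lung libraries. The hairpins below 1 read in 10000 numbered 2 of 52 in 9A and 11 of 52 in 9C, 11, 15 and 12 of 54 in 15B, 15C and 15D, and 10, 7 and 2 of 54 in 17A, 17B and 17C. At day 0 there were 0 to 1 such hairpins in a library of pool 9, 5 to 7 in pool 15 and 2 to 3 in pool 17. In culture there were 0 to 3, 7 to 11 and 4 to 5.

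The members did not start at the same abundance. At day 0 the mean level of TRCN0000123640 was 12363 ± 567 CPM (SD, n = 3), which ranked 26 of 52 in pool 9. TRCN0000123642 started at 5134 ± 264 CPM and ranked 40. In pool 15 TRCN0000294567 started at 367 ± 197 CPM and ranked 45 of 54. Among the Nup133 hairpins, TRCN0000246814 started at 10024 ± 1474 CPM and ranked 27 of 54. TRCN0000246815 and TRCN0000246817 started at 988 ± 98.0 and 348 ± 67.3 CPM, with ranks of 46 and 48. Each gene was thus covered by hairpins near the middle and near the bottom of a pool, and 3 of the 6 started at 0.0327 to 0.105 times the median level of their pool.

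The Eftud2 hairpin TRCN0000123640 kept its level in one set of cultures and was lower in both lung libraries. It was at 12462, 12874 and 11753 CPM in the 3 day 0 libraries of pool 9. In the cultures shared with pool 8 it was at 11896, 13686 and 12191 CPM, and in those shared with pool 10 at 3864, 4410 and 9417 CPM. In lungs it was at 2604 CPM in 9A and 211 CPM in 9C. Both lung values lay below every day 0 and every culture value, whereas the culture values overlapped with day 0. The cultures shared with pool 10 were sequenced in the same lane as day 0 and lungs, and those shared with pool 8 in another lane, so lane and culture set cannot be told apart. With only the cultures from the lane of day 0, an alternative chosen after seeing the data, its fitted log2 change in culture was -0.47 in place of -0.01, and in lungs against culture -2.88 in place of -3.35.

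TRCN0000123642, against the same gene in the same libraries, was already lower in culture. Its day 0 levels were 4885, 5108 and 5410 CPM. Its 6 culture levels ran from 309 to 996 CPM with all of them below day 0. In lungs it was at 1257 CPM in 9A and at 0.446 CPM in 9C, the latter from 2 reads. Library 9A thus lay above all 6 cultures and 9C below them, and the lung and culture groups overlapped.

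The hairpin in pool 15, TRCN0000294567, came from separate mice and separate libraries. It was at 594, 241 and 265 CPM at day 0. In culture it was at 340 and 1037 CPM in 14/15A and 14/15B, and at 71.9 and 52.8 CPM in 14/15C and 15D. In lungs 15B, 15C and 15D held 16, 0 and 2 of its reads, which are 2.56, 0 and 0.379 CPM. The 0 reads in 15C allow a level of up to 0.383 CPM (3 reads, counting error only). All 3 lung libraries lay below all 7 others, while the culture and day 0 values overlapped.

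The 3 Nup133 hairpins were measured in the same mice. TRCN0000246814 was at 9384, 8979 and 11710 CPM at day 0 and at 1364, 1117 and 1780 CPM in culture. In lungs it was at 3.97 CPM in 17A, 6.47 CPM in 17B and 1020 CPM in 17C. The 3 groups of this hairpin did not overlap, with day 0 highest and lungs lowest.

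TRCN0000246815 started lower, at 1016, 879 and 1069 CPM. In culture it was at 824, 202 and 731 CPM, each below day 0. In lungs it was at 30.2 CPM in 17A and 1.35 CPM in 17B, and at 2364 CPM in 17C, which was above every day 0 and culture value. TRCN0000246817 was at 317, 302 and 425 CPM at day 0 and at 855, 72.0 and 131 CPM in culture. In lungs it was at 54.4, 20.5 and 484 CPM in 17A, 17B and 17C, so that 17C was again above all day 0 values. For both of these hairpins the lung values overlapped with the other groups.

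**Figure D1:**
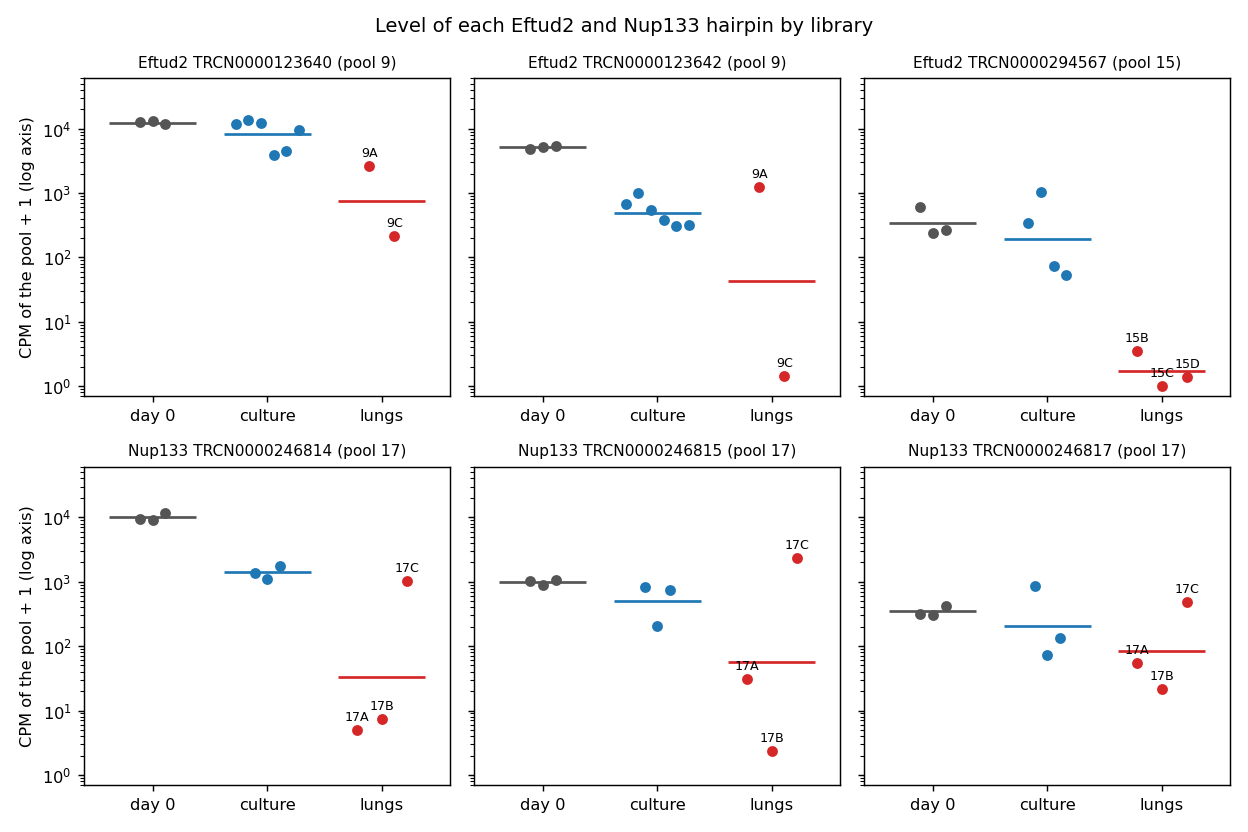
Level of each Eftud2 and Nup133 hairpin in every library of its pool, as CPM of the pool's targeting reads plus 1 on a log axis; points are libraries, lines are means of log2 values, and lung libraries are named. The Nup133 hairpins are highest among lungs in 17C, and TRCN0000294567 has 0 to 16 reads in each lung library.

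Summed over its hairpins, the Nup133 level in pool 17 was 10716, 10161 and 13205 CPM at day 0, 3043, 1390 and 2642 CPM in culture, and 88.5, 28.3 and 3868 CPM in lungs 17A, 17B and 17C. Library 17C was the only lung library of the 3 that exceeded the cultures. The Eftud2 sum in pool 9 was 17164 to 17981 CPM at day 0, 4248 to 14683 CPM in culture, and 3861 and 211 CPM in lungs. At day 0 most of these sums came from TRCN0000123640 and TRCN0000246814. In lungs TRCN0000246814 held 3.97 of 88.5, 6.47 of 28.3 and 1020 of 3868 CPM, so that the rarer Nup133 hairpins made up most of each lung sum.

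Changes between groups were fitted with limma on log2(CPM + 1) values, scaled by trimmed means of M values (TMM) within a pool, which sets the bulk of its hairpins near 0. On this scale the 3 Eftud2 hairpins changed on average by -5.45 in lungs against day 0, by -1.01 in culture against day 0 and by -4.56 in lungs against culture. The corresponding means of the 3 Nup133 hairpins were -4.18, -0.72 and -3.38. The median over all hairpins was -0.13 of 891, -0.10 of 945 and -0.11 of 889, respectively. Among the 241 genes with 3 or more hairpins in lungs against culture, the mean of Eftud2 was the lowest and that of Nup133 ranked 3 from the lowest. These ranks follow from how the genes were chosen. The lung comparisons share their lung libraries, and both day 0 comparisons share the day 0 libraries, so the values side by side are not independent.

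The hairpins of a gene differed. In lungs against day 0 the log2 change was -3.07 ± 0.88 (SE) for TRCN0000123640, -6.24 ± 3.02 for TRCN0000123642 and -7.03 ± 0.84 for TRCN0000294567. The Nup133 hairpins TRCN0000246814, TRCN0000246815 and TRCN0000246817 changed by -7.60 ± 1.91, -3.53 ± 2.28 and -1.40 ± 1.17. In culture against day 0 the changes of TRCN0000123642 and TRCN0000246814 were -2.82 ± 0.38 and -2.03 ± 0.32. The other 4 hairpins lay between -0.20 and 0.03 in culture, with SEs of 0.33 to 0.99. In lungs against culture the Eftud2 changes, in the same order, were -3.35 ± 0.68, -3.56 ± 1.90 and -6.77 ± 1.25. Those of Nup133 were -5.50 ± 1.79, -3.25 ± 2.04 and -1.38 ± 1.66. The SE of TRCN0000246817 exceeded the size of its change in lungs against culture.

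**Figure D2:**
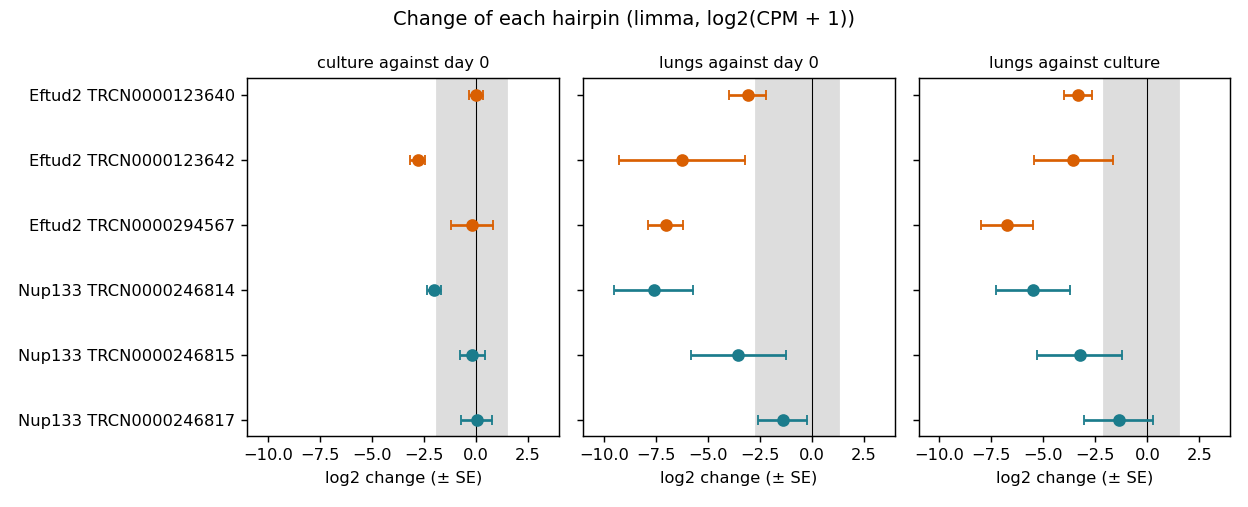
Change of each hairpin in the 3 comparisons as log2(CPM + 1) differences with SE from limma; the grey band spans the 10th to 90th percentile of all hairpins tested. In culture 4 of the 6 hairpins lie near 0, and in lungs the changes run from -1.40 to -7.60 against day 0.

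All 6 members lay below 0 in lungs against day 0, except that TRCN0000246815 was at 0.02 with edgeR. All 6 also lay below 0 in lungs against culture, except that TRCN0000123642 was at 1.22 when lung replicates C were left out. With edgeR 2 of these 6 changes were close to 0, at -0.03 for TRCN0000123642 and -0.02 for TRCN0000246815. In culture the sign of the hairpins near 0 varied with the scaling, the model and the libraries left out, and 2 to 6 of the 6 lay below 0. With TMM, 2 of the 6 members were lower past an adjusted p of 0.05 in lungs against day 0, where 19.1% of all hairpins were called lower and 33.8% were called in either direction. In culture against day 0 the count was 2 of 6 against 31.9% lower and 60.6% in either direction. Scaled to the control hairpins it was 4 of 6, and the hairpins near 0 were then at -0.61 to -1.51. That scaling called 623 of all 945 hairpins in this comparison, with 16.1% of the calls higher, so the background of lower calls rose too. In lungs against culture with TMM the count was 3 of 6 against 13.3% lower and 24.9% in either direction. Every lung library was below every day 0 library in CPM for 4 of the 6 members and for 45.7% of all hairpins, every culture library below day 0 for 3 of the 6 and for 50.5%, and every lung library below culture for 3 of the 6 and for 23.0%. Over the alternatives the members called lower numbered 1 to 6 in lungs against day 0, with 6 without lung replicates C and 1 with edgeR or without day 0 replicates A, B or C, lung replicates B or lung library 17A, and 2 to 4 in lungs against culture. Nothing is read from these counts, because the members were chosen on the same contrasts.

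The scaling moved the values in culture and in lungs. Relative to library totals the median of all hairpins was -0.73 in lungs against day 0, with an Eftud2 mean of -6.20. In culture against day 0 that median was -0.64, and the Nup133 mean was -1.53 in place of -0.72. Relative to the control hairpins the Nup133 mean was -2.05, with a median over all hairpins of -0.99. With edgeR, whose fold changes follow mean counts and not mean logs, the Nup133 mean was -1.67 in lungs against day 0 and -1.28 in lungs against culture.

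The size of the Nup133 values depended on single libraries. In culture against day 0 the mean was -0.24 without culture replicates B and -1.19 without culture replicates A. Without lung replicates B the Nup133 mean was -2.70 in lungs against day 0 and -1.81 in lungs against culture, with TRCN0000246815 at -1.19 and TRCN0000246817 at -0.40 against day 0. Without 17C, an alternative chosen after seeing the data, the Nup133 mean was -6.11 in lungs against day 0 and -5.31 in lungs against culture. The hairpins TRCN0000246814, TRCN0000246815 and TRCN0000246817 were then at -9.86, -6.04 and -2.44 against day 0. Without lung library 17A and culture library 16/17A, the libraries with many reads of other pools (also chosen after seeing the data), the Nup133 mean was -3.59 against day 0 and -2.44 against culture. Pool 9 likewise rested on 2 lung libraries. Without lung replicates A the Eftud2 mean was -7.49 against day 0, and without lung replicates C it was -3.30. TRCN0000123642 alone ranged from -11.01 without 9A to -1.54 without 9C.

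The lung libraries of a pool differed widely for these hairpins. These are the lung values on which the genes were chosen, and a library near 0 gives both a low mean and a high spread on the log scale, so the spread is a description too. In pool 17, 5 of the 54 hairpins were more than 5-fold higher in 17C than in either other lung library, and the 3 Nup133 hairpins were among these 5. TRCN0000246814 was 158-fold, TRCN0000246815 78.4-fold and TRCN0000246817 8.90-fold above the higher of 17A and 17B. The other hairpins of the 5 targeted Klf6, a zinc-finger transcription factor, at 19.1-fold and Sipa1l2, a Rap GTPase-activating protein, at 5.22-fold. In all, 21 of 54 hairpins were highest in 17C, 22 in 17B and 11 in 17A. This pattern was noticed after the values were seen, and no test was made of it. The highest lung library of the Nup133 hairpins was also the deepest of its pool, with 8720796 reads against 4500424 and 4707326, and had the fewest hairpins below 1 in 10000, whose part in the result was not tested.

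**Figure D3:**
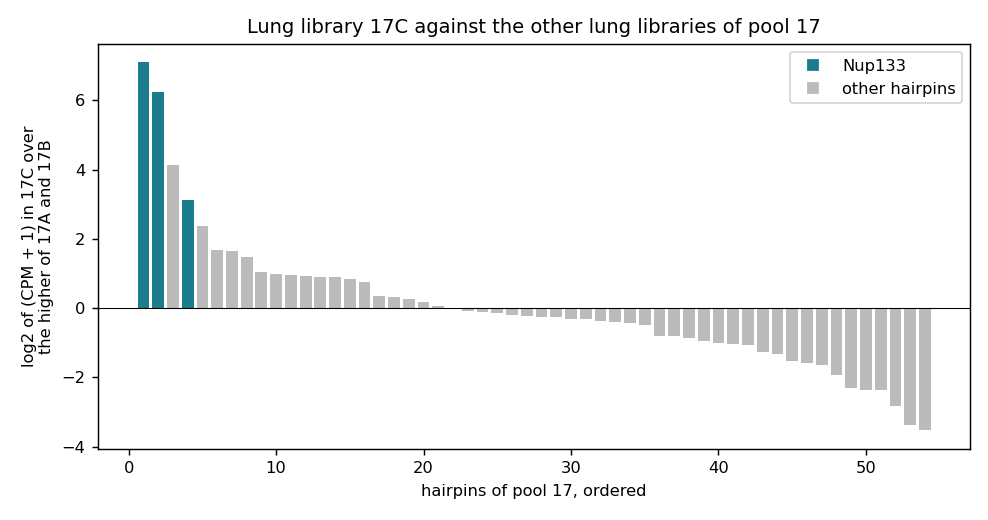
For each of the 54 hairpins of pool 17, log2 of (CPM + 1) in lung library 17C over the higher value of 17A and 17B, ordered by size, with Nup133 in colour. The Nup133 hairpins take places 1, 2 and 4, and 21 of the 54 hairpins are above 0.

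The SD of log2(CPM + 1) over the lung libraries was 4.28, 5.04 and 2.31 for TRCN0000246814, TRCN0000246815 and TRCN0000246817, and the median over pool 17 was 1.07. They ranked 3, 2 and 7 of 54 by this spread. In pool 9 the SD of TRCN0000123642 over 2 lung libraries was 6.90, the largest of 52, and that of TRCN0000123640 was 2.56, which ranked 12. The median there was 0.92. Of the 52 hairpins, 38 were higher in 9A and 14 in 9C. More than 10-fold higher in 9A were 13, and both Eftud2 hairpins belonged to these. TRCN0000294567 was low in all 3 lung libraries of pool 15, and its SD of 0.95 ranked 20 of 54. In culture the members also varied, with SDs of 1.85 for TRCN0000246817, 1.12 for TRCN0000246815 and 2.00 for TRCN0000294567, which ranked 2, 4 and 5 of 54. TRCN0000123640 and TRCN0000123642 ranked 8 and 9 of 52 in culture, and TRCN0000246814 ranked 33 of 54. At day 0 the members' SDs were 0.07 to 0.71 and ranked 16 to 25 in their pools.

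Within their pools the members stood near the low end in lungs. Against day 0, TRCN0000123642 ranked 2 and TRCN0000123640 ranked 8 from the lowest of 52, TRCN0000294567 ranked 2 of 54, and the Nup133 hairpins ranked 1, 6 and 14 of 54. In culture against day 0, TRCN0000123642 ranked 3 and TRCN0000246814 ranked 6, and the other 4 members ranked 25 to 30. The 8 control hairpins of each pool also spread widely in lungs. Relative to the reads of the targeting hairpins, without TMM, their log2 changes from day 0 to lungs were -6.97 at the lowest and 1.45 at the highest in pool 9. They were -5.22 and 0.45 in pool 15, and -6.71 and 1.76 in pool 17. The medians of the controls were -2.01 in pool 9, -2.87 in pool 15 and -0.64 in pool 17. On the same scale the members were at -6.91 and -4.06 in pool 9, at -7.63 in pool 15 and between -8.21 and -2.05 in pool 17. The Eftud2 hairpins of pool 9 were thus within the range of the controls and below their median. The same held for TRCN0000246815 at -4.14 and TRCN0000246817 at -2.05, while TRCN0000294567 and TRCN0000246814 lay below all 8 controls of their pools. Each range runs between the extremes of all 8 controls, and whether each control was neutral was not tested. The range is therefore no measure of the spread of neutral hairpins.

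**Figure D4:**
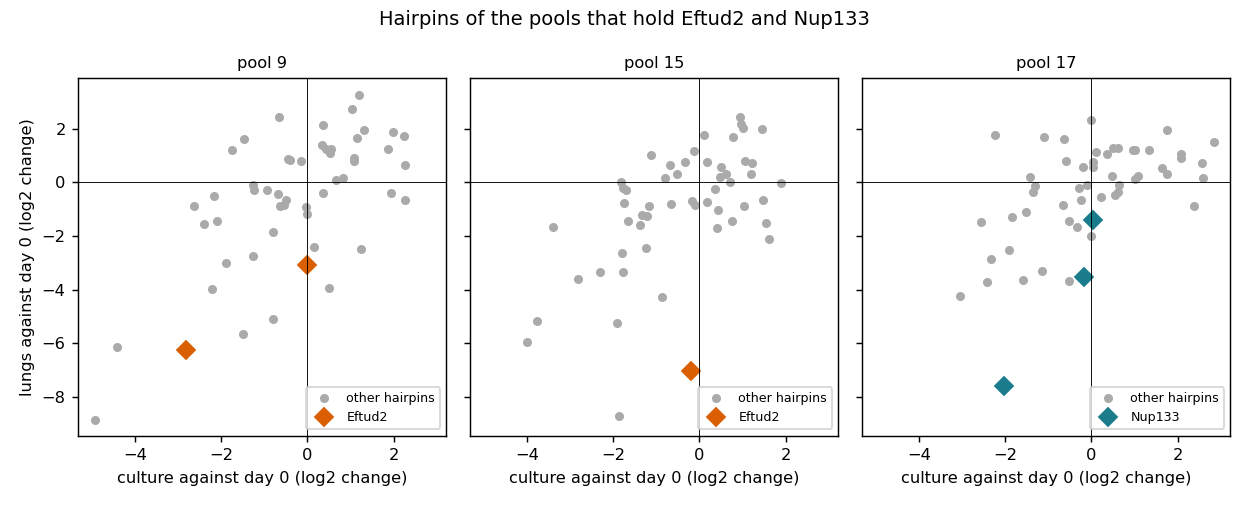
Log2 change in lungs against day 0 (vertical) and in culture against day 0 (horizontal) for every hairpin of pools 9, 15 and 17, with Eftud2 and Nup133 as diamonds; both axes share the day 0 libraries. TRCN0000294567 of Eftud2 lies at -0.20 in culture and -7.03 in lungs.

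Across all libraries of a pool, the hairpins most like 5 of the members were found by the Pearson correlation of log2(CPM + 1), which is a description over libraries that share their arms and depth. The closest to TRCN0000123640 over 11 libraries were hairpins against Phlda1 (r = 0.97) and against Eif5b (r = 0.92), a translation initiation factor that joins the ribosomal subunits. Those closest to TRCN0000123642 targeted Yme1l1, a mitochondrial inner-membrane protease, and Cxcl3, a chemokine, both with r = 0.93. The pair of Eftud2 hairpins in pool 9 had an r of 0.81, which ranked 7 of 51 for each.

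For each Nup133 hairpin at least 1 of the 2 closest hairpins of pool 17 was another Nup133 hairpin. TRCN0000246815 and TRCN0000246817 had an r of 0.86 over 9 libraries and were closest to each other. TRCN0000246814 had an r of 0.84 with TRCN0000246815 and of 0.66 with TRCN0000246817. The hairpin TRCN0000257325 against Cramp1l was among the 2 closest to all 3, with an r of 0.95, 0.84 and 0.69.

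Of a list of 229 splicing genes, 5 besides Eftud2 were in the screen, with 16 hairpins. They were Snrpd1, an Sm core protein of spliceosomal ribonucleoproteins, Sf3b1, which binds the branch site as part of the U2 small nuclear ribonucleoprotein, Srrm2, a scaffold protein of nuclear speckles, Rbm8a, a core protein of the exon junction complex, and Msi2, an RNA-binding protein best known for control of translation. In culture against day 0, 10 of the 16 fell and 3 rose past the threshold of limma, with a median log2 change of -0.94, where 31.9% of all hairpins were called lower and 60.6% in either direction. In lungs against day 0, 6 fell and 2 rose, with a median of -0.97, against 19.1% lower and 33.8% in either direction. In lungs against culture, 5 fell and 3 rose, with a median of -1.11, against 13.3% and 24.9%. The 3 Msi2 hairpins were among the 5 that fell there, and they were the 3 that rose in culture. The count of falls in lungs against culture thus rests largely on Msi2. The medians over all hairpins were -0.10, -0.13 and -0.11. Without day 0 replicates A, B or C the calls in lungs against day 0 went from 8 to 2, 3 and 5, and without replicates A or B those in culture went from 13 to 8.

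Snrpd1 was measured in the same libraries as Eftud2. Its 3 hairpins fell in culture, with log2 changes of -2.17 ± 0.33, -1.87 ± 0.68 and -1.77 ± 0.68 (adjusted p = 0.000127, 0.0386 and 0.0471, limma). In lungs they did not behave alike. TRCN0000295003 of pool 15 fell from 1998 ± 236 CPM at day 0 to 3.88 ± 6.15 CPM in lungs, a log2 change of -8.70 ± 1.14 (adjusted p = 0.00208, limma), with 3, 86 and 1 reads in 15B, 15C and 15D. TRCN0000295005 in the same lung libraries was at 3063, 4628 and 12098 CPM, with a change of -0.23 ± 0.68 from day 0 (adjusted p = 0.828, limma). TRCN0000123403 in pool 9 was at 28169 CPM in 9A and 626 CPM in 9C, and its change from day 0 was -0.53 ± 1.42 (adjusted p = 0.814, limma).

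The hairpins against the remaining splicing genes moved in both directions. The 3 Msi2 hairpins rose in culture, by 0.33 to 2.39, and each fell in lungs against culture, with log2 changes of -1.36 ± 0.27, -1.63 ± 0.19 and -2.86 ± 0.52 (adjusted p = 0.00378, 7.1e-05 and 0.00237, limma). The 3 Srrm2 hairpins fell in culture, with changes of -2.12 ± 0.15, -0.46 ± 0.16 and -0.72 ± 0.16, and TRCN0000123439 rose in lungs against culture by 1.94 ± 0.21 (adjusted p = 0.00128, limma). Sf3b1 hairpins differed among themselves in lungs against culture, where TRCN0000109244 fell by 1.96 ± 0.37 and TRCN0000109242 rose by 1.26 ± 0.31 (adjusted p = 0.00235 and 0.0128, limma). Of the 4 Rbm8a hairpins, TRCN0000123572 fell by 2.71 ± 0.64 and TRCN0000434151 rose by 1.26 ± 0.30 in lungs against day 0 (adjusted p = 0.0104 and 0.0173, limma).

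Of a list of 77 nuclear pore and nuclear transport genes, Kpnb1 was in the screen besides Nup133. It encodes importin beta, which carries proteins through the pore. Of its 3 hairpins, TRCN0000112415 and TRCN0000112418 fell in culture, with changes of -1.32 ± 0.34 and -1.78 ± 0.51 (adjusted p = 0.00896 and 0.0153, limma). TRCN0000112418 fell in lungs against day 0, with a change of -1.82 ± 0.56 (adjusted p = 0.0265, limma), a call that was lost without day 0 replicates A or C and with control, size-factor or deposited scaling. In lungs against culture the changes were 0.96 ± 0.69, -0.06 ± 0.75 and -1.61 ± 0.96, and 0 of the 3 passed the threshold in limma or in edgeR, with 0 at an unadjusted p under 0.05 in limma, while 1 passed when reads were scaled to the control hairpins.

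A further 7 genes of translation, ribosome assembly and RNA decay (Eif5b, Bzw2, Utp20, Pak1ip1, Znrd1, Dicer1 and Cnot2) were chosen with their earlier results in view and are given as a description. Of their 22 hairpins, 11 were past the limma threshold below 0 and 2 above it in culture against day 0, 5 and 2 in lungs against day 0, and 3 and 4 in lungs against culture. Over all hairpins 31.9%, 19.1% and 13.3% were called lower, so the counts in the lung comparisons are near that background. Their medians were -0.87, -0.50 and -0.32. Leaving out day 0 replicates A, B or C took the 7 calls in lungs against day 0 to 3 each time, and leaving out culture replicates B or C took the 7 in lungs against culture to 4. The mean of the 3 Eif5b hairpins was -6.89 in lungs against day 0, the lowest of the 242 genes with 3 or more hairpins, and -3.61 in culture against day 0. For Eftud2 and Nup133 the corresponding culture means ranked 35 and 62 from the lowest of 259. The Eif5b hairpins lay in pool 9 with Eftud2, and like 38 of the 52 hairpins of that pool they were higher in 9A, at 162, 166 and 137 CPM, than in 9C, at 0.223, 0 and 11.6 CPM. The mean of the 3 Pak1ip1 hairpins was 1.92 in lungs against culture, at the other end of the order.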

How the data were processed

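The deposited files hold, per hairpin, a normalised signal made by the authors; how reads were counted and scaled is not given in the sources used here, and alignment used BWA 0.5.9 per the submitters' processing notes. Dividing each library by its smallest deposited value gave whole reads for 27241 of 27241 values (100%, within 0.01 reads), and absent hairpins were taken as 0. Values were missing for 10 of 158 samples, none of them in the pools of the members. Technical repeats were summed. Reads of a pool's own hairpins were scaled with TMM (edgeR 4.0.16), and log2(CPM + 1) values were fitted per pool with limma 3.58.1 in R 4.3.3, using only the 2 groups compared, with eBayes set to trend and robust. A minimum mean of 10 reads was required, which all 6 members met. Benjamini-Hochberg adjustment ran over every hairpin of every pool, and the threshold was 0.05. The log2(CPM + 1) scale understates changes of rare hairpins. Levels in CPM carry no TMM factor, so they can differ in sign from the fitted changes.

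The members and lists were chosen with earlier results of these data known. Named are all hairpins of the members, the hairpins of the lists by gene, and the 2 hairpins of the pool most correlated with each member, except for TRCN0000294567, for which this is not reported here; Klf6, Sipa1l2 and the pattern of library 17C were picked after their values were seen. The labels state cultures in triplicate and 3 mice per pool; whether day 0 libraries are separate cell pellets is not stated, so p-values there measure the spread between these samples, which may be technical. PCR reads had no molecular identifiers, so intervals cover counting error only. Alternatives were other scalings, a pseudocount of 10, DESeq2 1.42.0 size factors, edgeR, no filter, a replicate block and left-out libraries; the lane of the cultures and libraries 17A, 17C and 16/17A were added after seeing the data. The script was tested on simulated data.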

Additional observations from a re-analysis of the deposited data

Results flagged for a closer look

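Reads of 4 member hairpins appeared in libraries whose labels name other pools, above the limit of 3 reads. TRCN0000123640 of Eftud2 had more than 3 reads in 17 of 131 such libraries, with 874 reads (44.5 per 1000000 reads) at most, in the day 0 library 8A. TRCN0000123642 of Eftud2 had at most 105 reads, in day 0 library 8B. TRCN0000246814 and TRCN0000246815 of Nup133 had at most 21 and 5 reads, both in culture library 16E. The lung levels of TRCN0000246814 in 17A and 17B came from 10 and 24 reads and that of TRCN0000123642 in 9C from 2 reads, so the lowest lung values are of the size of reads found outside a pool. In culture, where the 3 Eftud2 hairpins had 4 or more libraries each, 0 of the 3 sets of values held one that stood apart from the rest by a Dixon test. Sets this small give the test little power, and the lung sets, which were smaller, were not tested. No conclusion on single libraries is drawn from it.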

How the results depend on the processing

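The means of the Eftud2 and Nup133 hairpins were below 0 in all 3 comparisons under each alternative run. The genes were chosen on these same values, and some alternatives left their pools unchanged, so the sign is a description only. With a replicate block they were -5.44, -1.13 and -4.36 for Eftud2 and -4.18, -0.72 and -3.38 for Nup133, in lungs against day 0, culture against day 0 and lungs against culture. With the block 233, 573 and 195 of all hairpins were called, against 301, 573 and 221. The letters were not treated as pairs, since same-lettered libraries of 2 arms did not deviate together throughout (correlations from -0.60 to 0.86 over the pools). The Nup133 mean in culture was -1.53 with library totals, -2.05 with control totals and -1.87 with the deposited values. Leaving out 1 replicate letter at a time, the Eftud2 mean ranged from -7.49 to -3.30 in lungs against day 0 and from -6.55 to -2.36 in lungs against culture, the Nup133 mean from -6.11 to -2.70 and from -5.31 to -1.81, with -1.19 to -0.24 in culture against day 0, and calls over all hairpins ranged from 148 to 388 and from 142 to 249. Some of these fits leave 1 lung library in a pool, which is assumed to vary like the others. The share of calls that were higher was 43.5%, 47.5% and 46.6% with TMM, 24.4%, 26.5% and 44.6% with library totals, 45.8%, 16.1% and 82.4% with control totals, and 30.5%, 20.6% and 60.6% with the deposited values. Of 378 hairpin values under alternatives, 27 moved by more than 1 SD between libraries. Some alternatives left out no library of a hairpin's pool, so that value could not move. The SD was the hairpin's own residual SD, which was wide for some. For TRCN0000123642 in lungs against day 0 it was 3.88, so -2.49 with edgeR in place of -6.24 did not count as moved. The count of moved values is therefore no measure of stability. Lung levels of 0 to 24 reads limit how far a low hairpin can be measured.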
